A study of Mus musculus with 8 samples.

Results

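Amino acid transporters of the Slc1, Slc3, Slc6, Slc7, Slc36, Slc38 and Slc43 families, with their partner Tmem27, were described in mouse kidney with and without C1qtnf1. C1qtnf1 encodes CTRP1, a secreted protein of the C1q and tumour necrosis factor related family. Members were chosen by gene name, which took every symbol of these 7 families together with Tmem27. The osmolyte transporters Slc6a6 and Slc6a12 and the pseudogenes were left out. This gave 65 of the 35275 genes in the table. Of these, 61 were named transporters or Tmem27. The other 4 (Slc36a1os, Slc36a3os, Slc6a19os and Slc7a6os) are opposite-strand genes whose names match the rule and which are not known as transporters.

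The study compared whole left kidneys of 4 male mice homozygous for a C1qtnf1 deletion (KO) with those of 4 male wild-type littermates (WT), all from crosses of heterozygotes. All 8 mice were 40 weeks old, were on a C57BL/6J background and had been fed a high-fat diet (60% of calories as fat) from the age of 6 weeks, so no group had normal chow. The allele came from 129S5 embryonic stem cells, lacks 679 bp of exon 4 (162 bp of them in the 3′ UTR), and was backcrossed for more than 6 generations. The deletion is carried by every cell of the body from conception and is not limited to the kidney.

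In the kidney, the proximal tubule takes back nearly all filtered amino acids. Sodium-coupled or exchanging carriers of the brush border bring them into the cell from the urine side, and exchangers and uniporters of the basolateral membrane pass them on to the blood. Several of these carriers are made of a heavy chain (an Slc3 protein) that brings a light chain (an Slc7 protein) to the membrane. Inherited loss of the Slc3a1 and Slc7a9 pair causes cystinuria in humans, loss of Slc6a19 causes Hartnup disorder and loss of Slc7a7 causes lysinuric protein intolerance.

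Libraries held 17884140 to 20344859 reads, as inferred from the deposited values, and 19058 to 19467 genes were above 0 in each. In KO, C1qtnf1 fell to 0.61 ± 0.23 FPKM, against 5.42 ± 0.141 FPKM in the littermates (SD over 4 mice, limma adjusted p = 2.3e-05), with no overlap between the groups. FPKM are fragments scaled by the length of the gene and the depth of the library, so they can be compared between genes. As a check of the tissue, 20 proximal tubule genes summed to 10000 to 12100 FPKM per WT mouse and 10600 to 11200 FPKM per KO mouse. That sum is weighted to abundant genes such as Slc34a1 and Miox, and it hides opposite shifts in KO replicate 2. Lrp2 and Cubn were at 83.5 and 23.2 FPKM there, against 188 to 217 and 45.5 to 51.4 FPKM in the other mice. Miox and Slc27a2 were at 2780 and 1180 FPKM, against 1880 to 2680 and 749 to 894 FPKM. Among the KO libraries, 3 differed from the WT mean in ways that ran over all genes or through genes of another tissue. In KO replicate 2, the difference from the WT mean went with gene length over the 12118 genes tested, with a Spearman correlation of -0.59 across genes, which are not independent replicates. Its median difference was 0.41 (log2) for genes under 1500 bases and -0.38 for genes of 5000 bases or more, against -0.06 to 0.04 in the other mice. In KO replicates 3 and 4 the difference went with the GC content of genes, with Spearman correlations of 0.36 and 0.47 over all genes tested and 0.27 and 0.46 over the 37 members. Correlations with GC content were not computed for single WT mice. In KO replicates 1 and 2, set against the same WT mean, the correlations were -0.01 and -0.07 over all genes tested. Whether the WT mean has a trend of its own was not tested. The part of GC content in the members' values was not tested. KO replicate 4 also held genes of pancreatic islets, a list chosen after values were seen: their summed level was 14.7 FPKM there and at most 0.206 FPKM in the other mice. Results are therefore also given without KO replicate 2 where it moves them. In whole kidneys, fewer cells of a type and less RNA per cell cannot be told apart.

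The transporters covered a wide range of levels in these kidneys. By mean over the 8 mice, 7 members were at 100 FPKM or more, 15 were between 10 and 100 FPKM, 15 were between 1 and 10 FPKM and 27 were above 0 but below 1 FPKM, while Slc36a1os was at 0 in every mouse. Tmem27 had the highest mean, 616 FPKM, and alone made up 28.5% of the summed level of all members. Slc7a13 followed at 269 FPKM (12.4% of the sum), and then Slc3a1 at 149, Slc6a18 at 124, Slc6a19 at 120, Slc6a8 at 120 and Slc3a2 at 111 FPKM. These 7 genes together held 69.8% of the summed level. They include the brush border heavy chain, a light chain of the straight proximal tubule, the basolateral heavy chain and brush border carriers of neutral amino acids.

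**Figure D1:**
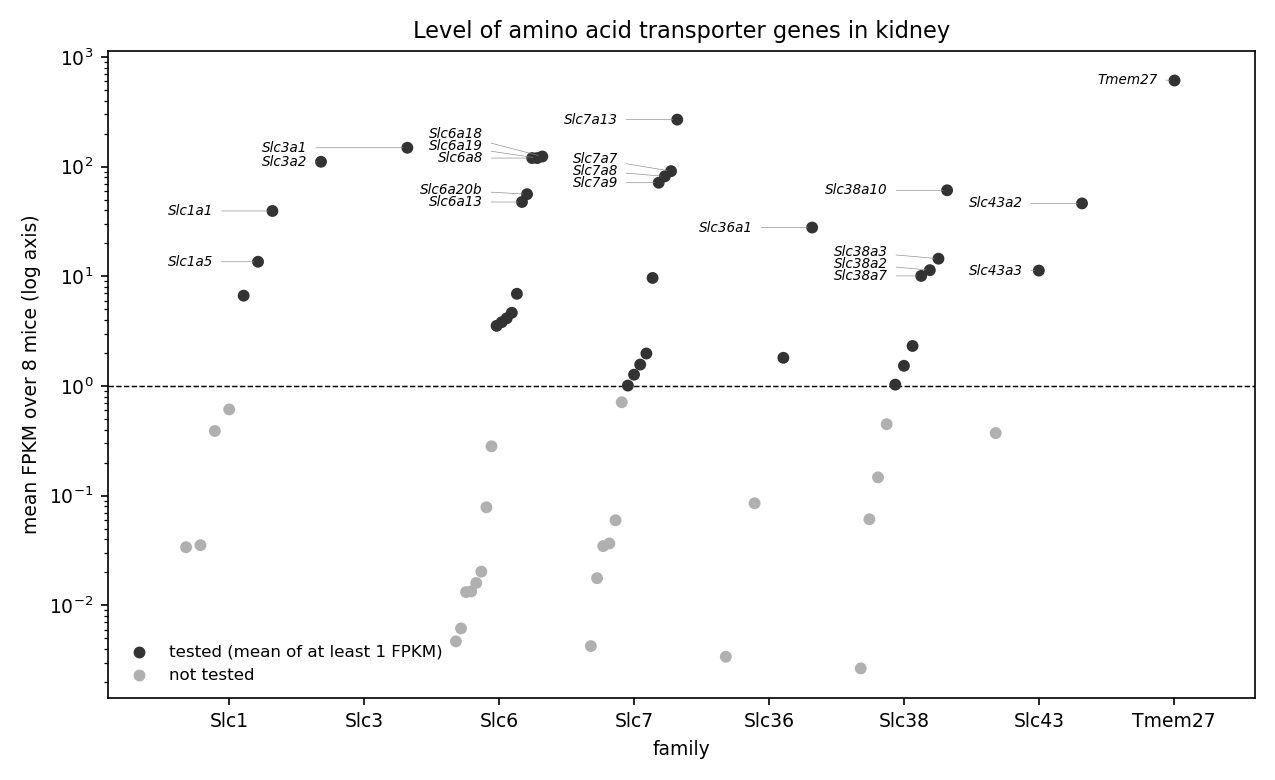
Mean FPKM over the 8 mice (log axis) of each named member by family, 1 point per gene, dark where the mean was at least 1 FPKM and the gene was tested. Tmem27 at 616 FPKM and Slc7a13 at 269 FPKM sit at the top, and each of the larger families also has members below 0.1 FPKM.

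Slc1a4, Slc7a11 and Slc7a7 hold the letters TGATGNAA, the core of the element bound by ATF4 and its partners in amino acid shortage. The matches lie between 250 bases before and 50 after a promoter start listed for the gene. A gene can have several such starts, and these can differ from the outer boundary of the gene. The letters were searched on both strands in the RefSeq promoters of build GRCm38.p6, where 48 members were matched. They were in 3 of 48 members (6.25%) and in 4.51% of the 27025 genes matched in that collection. HNF1 factors, which drive many genes of the proximal tubule, bind sites that contain GTTAAT. That word was in 8 of 48 members (16.7%) and in 8.24% of all genes, and Tmem27 is the most abundant of these members. Shown for 3 members that the results describe, the stretches give 30 bases around 1 match of each, 5′ to 3′ on the gene's strand, with the match in capitals (for Slc1a4 on the opposite strand). Slc7a7 and Tmem27 hold further matches.
Slc1a4, chr11:20332699-20332728, minus strand: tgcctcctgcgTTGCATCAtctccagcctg
Slc7a7, chr14:54418067-54418096, minus strand: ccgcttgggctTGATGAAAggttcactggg
Tmem27, chrX:164090122-164090151, plus strand: aactgatgggcGTTAATtattaaacctttt
A match is a description of letters and says nothing of binding in these kidneys.

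Of the 65 members, 37 had a mean of at least 1 FPKM and were tested for a difference between KO and WT with limma. With Benjamini-Hochberg adjustment over all 12118 genes tested, 0 of the 37 passed at 0.05 in either direction. Of all genes tested 5 did (0.0413%), 2 of them higher in KO (0.0165%) and 3 lower (0.0248%). At an unadjusted p under 0.05 there were 6 members (16.2%), 5 of them lower in KO and 1 higher. Over all genes there were 721 (5.95%), with 2.47% lower in KO and 3.48% higher. The 6 were Slc38a3, Slc7a12, Slc7a9, Slc6a19 and Slc38a4 on the lower side, and Slc1a4 on the higher side. The median difference of the 37 members (KO minus WT on the log2 scale of FPKM + 1) was -0.08, with 25 below 0 and 12 above. Over all genes tested the median was -0.01, with 52.8% below 0. Without KO replicate 2 the members' median was -0.03, with 23 below 0. No member passed the adjusted threshold without that mouse (0.173% of all genes did), with array weights (0.487%) or with the length trend removed (0.0578%). At an unadjusted p under 0.05, 4 members stood without that mouse, 10.8% of members against 11.5% of all genes. With the length trend removed there were 5 (13.5% against 7.74%), and with no filter on low values 7 of 64 (10.9% against 5.57%). In 3 members (8.11%) every KO mouse was below every WT mouse after scaling for library composition, and in 0 members was every KO mouse above. Over all genes tested these shares were 2.83% and 2.33%, together 5.16%.

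**Figure D2:**
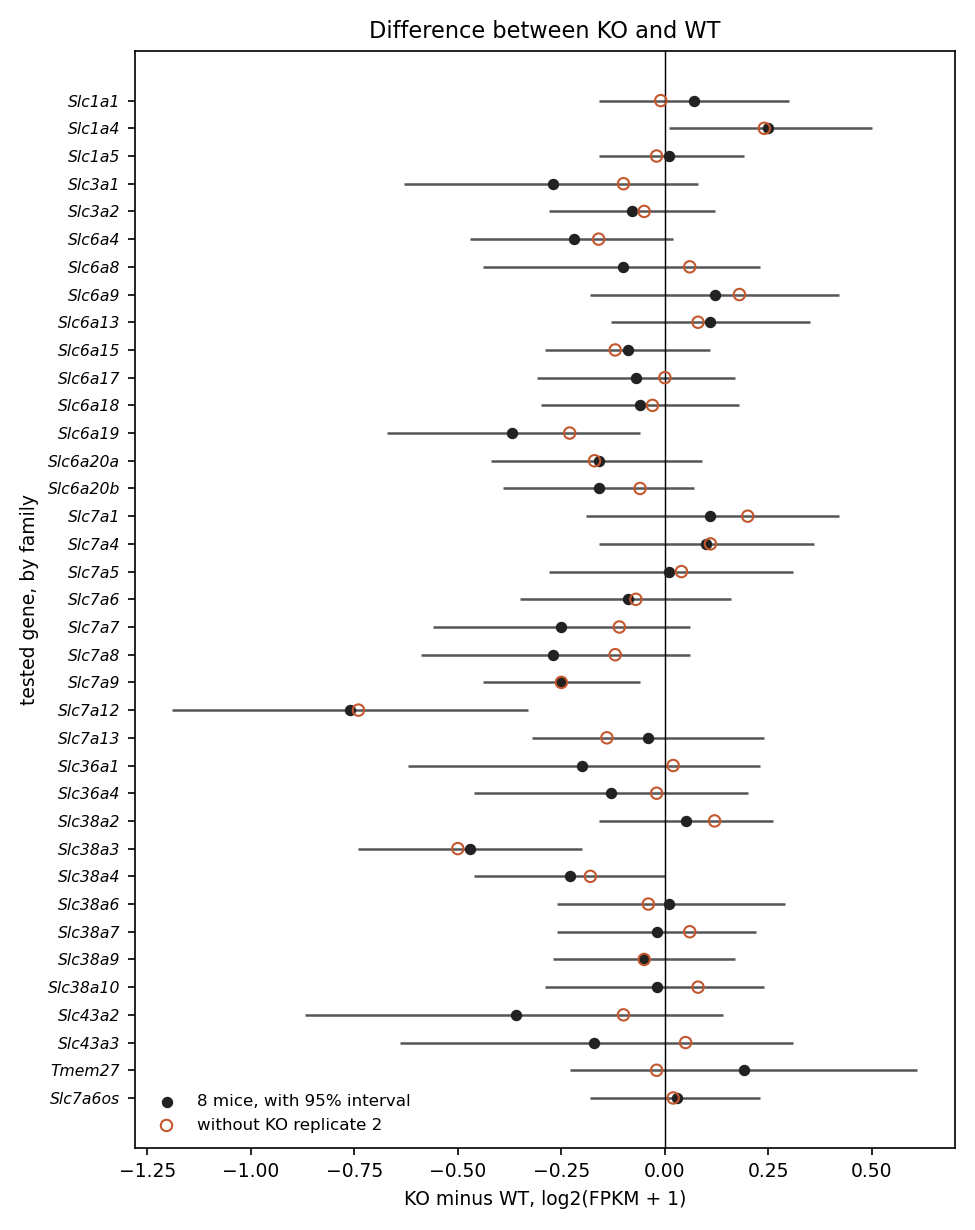
Difference between KO and WT (log2 of FPKM + 1, with its 95% interval) for each tested member, grouped by family, with open symbols for the value without KO replicate 2. Most of the intervals cross 0, those of Slc38a3, Slc7a12, Slc7a9, Slc6a19 and Slc38a4 lie below it and that of Slc1a4 lies above it.

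Transport of neutral amino acids across the brush border rests on Slc6a19 (B0AT1), a sodium-coupled carrier, with Slc6a18 (XT2), which in mice takes up glycine and alanine among others. Tmem27 (collectrin) brings these carriers to the membrane. Slc6a19 (chr13:73679745-73704865 in mm10) was at 131, 140, 148 and 123 FPKM in WT replicates 1 to 4 and at 111, 73.6, 115 and 121 FPKM in KO replicates 1 to 4. All KO mice were below all WT mice, with KO replicate 4 just below the lowest WT mouse and KO replicate 2 far below the rest. The difference was -0.37 ± 0.14 (log2, SE; 95% interval -0.67 to -0.06), with a limma adjusted p of 0.75. Without KO replicate 2 it was -0.23, and the adjusted p was 0.33.

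Slc6a18 was at 125, 115, 150 and 122 FPKM in the WT mice and at 118, 106, 131 and 128 FPKM in the KO mice. The groups overlapped, with means of 128 ± 15.1 and 121 ± 11.1 FPKM (SD, n = 4 each), and the interval of its difference ran from -0.30 to 0.18 on the log2 scale. Tmem27 was at 618.4, 528.4, 566.1 and 573.2 FPKM in WT and at 597.6, 944.0, 585.7 and 517.9 FPKM in KO. The high KO mean (661 ± 192 FPKM against 571.5 ± 36.9 in WT) came from KO replicate 2, and the other 3 KO mice lay within or close to the WT range. The log2 difference was 0.19 with an interval from -0.23 to 0.61, and -0.02 without KO replicate 2. Tmem27 was the one tested member under 1500 bases long, the length class in which the median over all genes was 0.41 in that library. The ratio of Slc6a19 to Tmem27 levels was 0.238 ± 0.0294 in WT and 0.186, 0.0779, 0.196 and 0.233 in the 4 KO mice.

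The remaining Slc6 members of these kidneys include carriers of imino acids, GABA, creatine and serotonin. Slc6a20b, of the imino acid carriers, was at 58.0 to 61.6 FPKM in WT (mean 59.4 ± 1.51), and the KO mice were at 58.2, 40.5, 57.6 and 55.4 FPKM. The log2 difference of Slc6a20b was -0.16, or -0.06 without KO replicate 2. Its near copy Slc6a20a was at 4.99 in WT and 4.33 FPKM in KO. The genes share sequence, with 15.29% of the 50-base windows of Slc6a20a also found in Slc6a20b, so reads could have been split between them. With other genes of any kind, 26.7% of windows were shared for Slc6a20a and 27.9% for Slc6a20b. Slc6a20b shared most with the gene Sacm1l (20.1%), so its level is in part uncertain. Slc6a8, the creatine carrier, was at 126, 125, 122 and 122 FPKM in WT and at 125, 75.0, 132 and 133 FPKM in KO. Apart from replicate 2, the KO mice were level with WT or above. Its difference of -0.10 (interval -0.44 to 0.23) became 0.06 without that mouse. Slc6a13, which carries GABA and taurine, had means of 46.2 and 49.2 FPKM. The serotonin carrier Slc6a4 was at 3.63, 4.25, 4.11 and 3.62 FPKM in WT and at 2.98, 2.49, 3.86 and 3.39 FPKM in KO. Only KO replicate 3 lay within the WT range, and the difference was -0.22 ± 0.11 (SE; limma adjusted p = 0.83), or -0.16 without KO replicate 2. Slc6a9 (glycine), Slc6a15 and Slc6a17 (neutral amino acids, mainly of neurons) were at 6.64, 3.99 and 4.28 FPKM in WT and 7.25, 3.64 and 4.01 FPKM in KO. For Slc6a9, 26.31% of windows were shared with other genes. Over the 10 tested Slc6 members, 8 lay below 0 with a median of -0.10, or -0.05 without KO replicate 2.

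Cystine and basic amino acids enter the proximal tubule cell through a dimer of the heavy chain rBAT (Slc3a1) and the light chain b0,+AT (Slc7a9), where neutral amino acids leave in exchange. Slc7a9 (chr7:35448796-35466036) was at 74.8, 83.6, 78.8 and 76.1 FPKM in WT and at 63.4, 60.5, 71.3 and 63.6 FPKM in KO. Every KO mouse was below every WT mouse. The means were 78.3 ± 3.88 and 64.7 ± 4.65 FPKM, and the log2 difference was -0.25 ± 0.09 (SE; interval -0.44 to -0.06). Its limma adjusted p was 0.70, and 0.28 without KO replicate 2, which left the difference at -0.25. Slc3a1 was at 163, 160, 173 and 152 FPKM in WT and at 145, 86.2, 154 and 156 FPKM in KO. Its KO replicate 2 was far below the other 3 mice, and the difference of -0.27 (interval -0.63 to 0.08) was -0.10 without it. Reads near Slc3a1 are in part uncertain, since 24.84% of its 50-base windows are also in the overlapping gene Prepl.

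The other light chain known to pair with rBAT is Slc7a13 (AGT1), which carries aspartate, glutamate and cystine in the straight part of the proximal tubule in mice. It was at 296, 262, 299 and 241 FPKM in WT and at 250, 307, 254 and 243 FPKM in KO. The groups overlapped, with means of 275 ± 28.1 and 264 ± 29.6 FPKM and a difference of -0.04 with an interval from -0.32 to 0.24. Without KO replicate 2 the difference was -0.14 (limma adjusted p = 0.55). Its highest KO mouse was replicate 2, at 307 FPKM, where Slc3a1 was lowest. The ratio of Slc7a13 to Slc3a1 levels was 1.69 ± 0.105 in WT and 1.72, 3.57, 1.65 and 1.56 in KO, and that of Slc7a9 to Slc3a1 was 0.485 ± 0.0319 in WT and 0.438, 0.702, 0.462 and 0.407 in KO. In both ratios KO replicate 2 was the one mouse far from the rest. Markers of the straight segment did not go 1 way in that mouse. Kap, the most abundant, was at 21800 FPKM there and at 8760 to 12900 FPKM in the other 7, while Slc5a1, Slc5a8 and Atp11a were at 14.5, 35.0 and 139 FPKM, the lowest of the 8 mice. The part of that library in these ratios was not tested.

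**Figure D3:**
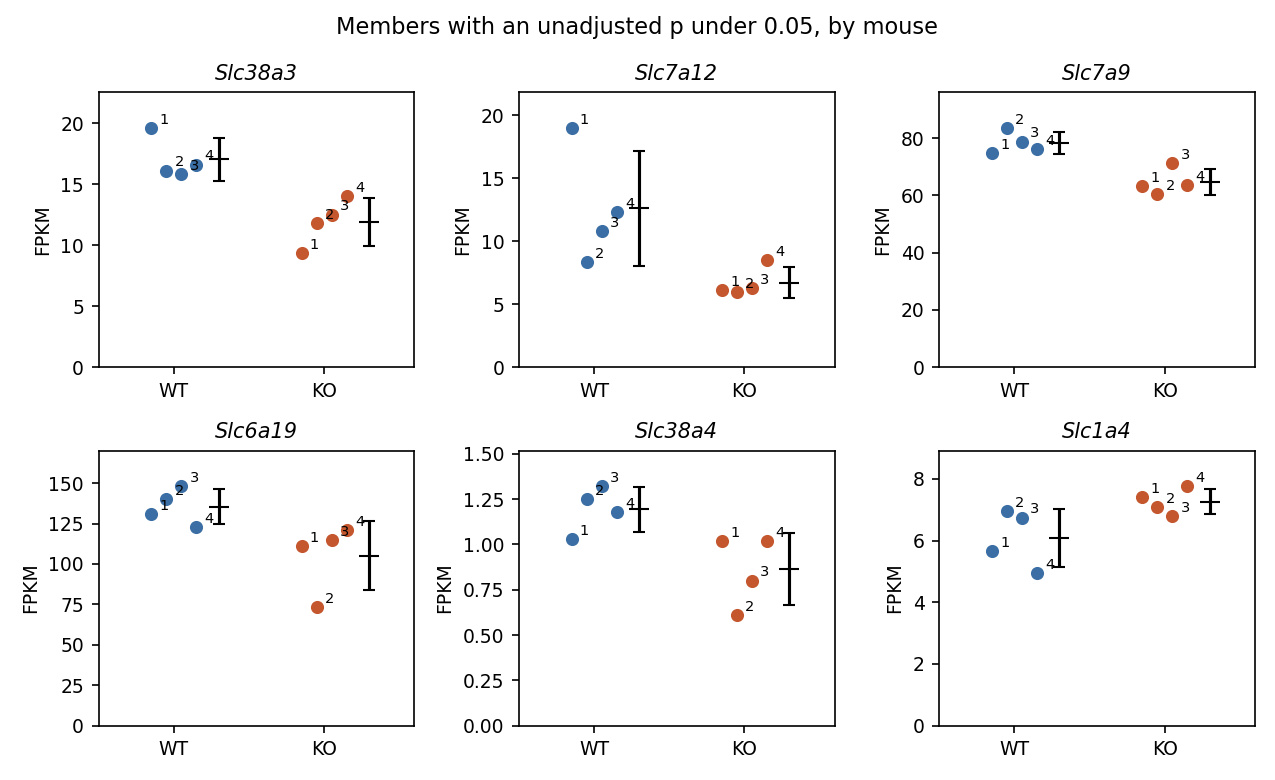
FPKM in each mouse (numbered by replicate) for the 6 members with an unadjusted p under 0.05, with WT on the left and KO on the right of each panel, and bars for the mean and SD of 4 mice. Slc38a3 lies at 15.8 to 19.6 FPKM in WT and at 9.33 to 14.0 FPKM in KO without overlap, and Slc1a4 is the one panel in which the KO mice tend to lie higher.

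On the blood side, 4F2hc (Slc3a2) is the heavy chain of Slc7a7 (y+LAT1), which lets basic amino acids out in exchange for neutral ones with sodium, and of Slc7a8 (LAT2), an exchanger of neutral amino acids. Slc3a2 was at 107, 111, 116 and 124 FPKM in WT and at 112, 95.3, 109 and 111 FPKM in KO. The groups overlapped, with means of 115 ± 7.2 and 107 ± 7.96 FPKM and a difference of -0.08 with an interval from -0.28 to 0.12. Slc7a7 was at 92.8, 106, 95.4 and 102 FPKM in WT (mean 98.9 ± 5.88), and the KO mice were at 92.5, 57.4, 97.9 and 86.1 FPKM. Slc7a8 was at 82.7, 91.4, 96.6 and 86.0 FPKM in WT (mean 89.1 ± 6.11), with 90.9, 50.6, 80.1 and 75.9 FPKM in KO. In both genes KO replicate 2 was the lowest of all 8 mice. The differences were -0.25 (interval -0.56 to 0.06) for Slc7a7 and -0.27 (interval -0.59 to 0.06) for Slc7a8, and -0.11 and -0.12 without that mouse.

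Slc43a2 (LAT4), a basolateral uniporter of branched-chain and other large neutral amino acids, was at 54.1, 51.6, 56.7 and 43 FPKM in WT and at 49.0, 20.6, 46.9 and 48.0 FPKM in KO. Apart from KO replicate 2, the groups overlapped, since the lowest WT mouse was below each of the other KO mice. The difference was -0.36 ± 0.23 (SE; interval -0.87 to 0.14), and -0.10 without that mouse. Slc43a2 has 7145 bases, within the length class of 5000 bases or more, whose median over all genes was -0.38 in KO replicate 2. Slc43a3, a nucleobase carrier of the same family found in endothelium, was at 10.2, 11.8, 10.5 and 14.9 FPKM in WT and at 10.2, 5.83, 13.5 and 13.3 FPKM in KO. Its difference was -0.17 (interval -0.64 to 0.31), and 0.05 without KO replicate 2. Endothelial markers summed to 52.1 FPKM in that mouse and to 95.1 to 103 FPKM in the other 7. The part of endothelium in the Slc43a3 value was not tested.

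Glutamine enters proximal tubule cells from the blood through Slc38a3 (SNAT3), which feeds the making of ammonia. Slc38a3 (chr9:107650634-107669530) was at 19.6, 16.1, 15.8 and 16.6 FPKM in WT and at 9.33, 11.8, 12.5 and 14.0 FPKM in KO. The highest KO mouse was below the lowest WT mouse. The means were 17 ± 1.76 and 11.9 ± 1.94 FPKM, resting on 4208 reads over the WT mice and 2812 over the KO mice. The log2 difference was -0.47 ± 0.12 (SE; interval -0.74 to -0.20), with a limma adjusted p of 0.42, or 0.16 without KO replicate 2. It was the one member to pass the threshold under any alternative, with an adjusted p of 0.038 and a difference of -0.48 under limma-voom with quality weights, a fit that weights KO replicate 2 at 0.1. Under that fit 73 of all genes passed (0.602%).

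Of the other Slc38 members, Slc38a4, a carrier of neutral amino acids best known from liver and placenta, was low. It was at 1.03, 1.25, 1.32 and 1.18 FPKM in WT and at 1.02, 0.608, 0.800 and 1.02 FPKM in KO, from 44 to 100 reads. The highest KO mouse nearly met the lowest WT mouse, and the groups overlapped once scaled. The difference was -0.23 (interval -0.46 to -0.00) with a limma adjusted p of 0.82. Without KO replicate 2 it was -0.18, with an unadjusted limma p of 0.11. Slc38a2 (SNAT2), which rises in cells short of amino acids, was at 12.0, 10.2, 11.3 and 11.4 FPKM in WT and at 13.1, 9.32, 11.5 and 12.4 FPKM in KO, with a difference of 0.05 (interval -0.16 to 0.26). Slc38a10 was at 57.4, 65.0, 61.1 and 62.8 FPKM in WT and at 60.6, 45.1, 66.5 and 69.6 FPKM in KO, with an interval from -0.29 to 0.24. It is the member nearest to the deleted gene, at chr11:120103960-120151346, which is 1.68 Mb from C1qtnf1. Slc38a7 and Slc38a9, both of the lysosome, were at 10.2 and 1.58 FPKM in WT and at 10.0 and 1.48 FPKM in KO. Slc38a6 was at 2.32 FPKM in both groups, with 35.5% of its windows shared with other genes.

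**Figure D4:**
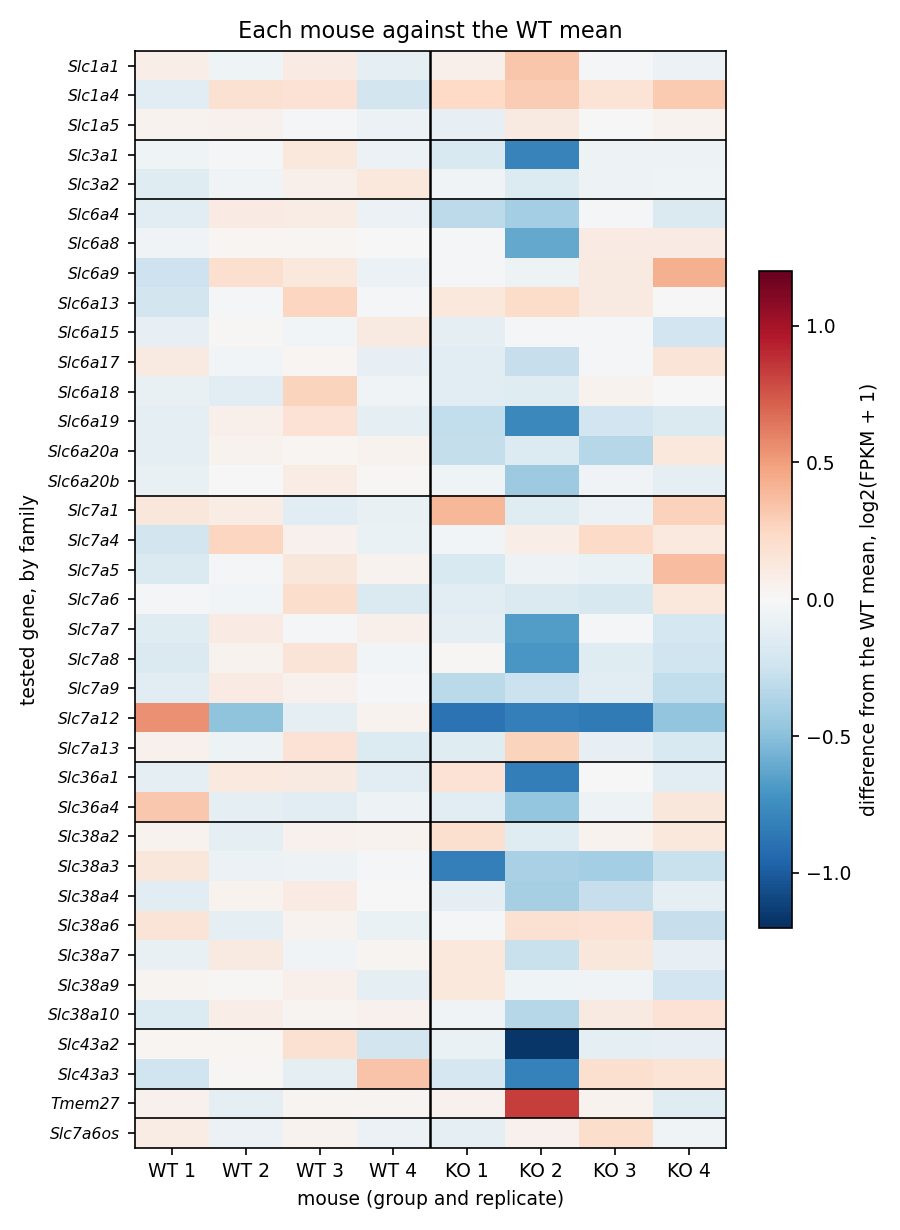
Difference of each tested member in each mouse from the WT mean (log2 of FPKM + 1), members in rows by family and mice in columns. KO replicate 2 is the lowest mouse in 19 of the 37 rows, while Tmem27 stands at 0.83 there.

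Slc7a12 (Asc-2), a carrier of small neutral amino acids, had the largest difference of the 37. It was at 19.0, 8.37, 10.8 and 12.3 FPKM in WT and at 6.13, 5.96, 6.26 and 8.52 FPKM in KO. The groups met only where KO replicate 4 was above WT replicate 2, and the WT mice spread widely. The means were 12.6 ± 4.56 and 6.72 ± 1.2 FPKM, and the difference was -0.76 ± 0.19 (log2, SE; interval -1.19 to -0.33), with a limma adjusted p of 0.42. Leaving out 1 mouse at a time gave -0.92 to -0.57. Slc7a1 (arginine and lysine), Slc7a4, Slc7a5 (LAT1) and Slc7a6 were near 1 to 2 FPKM, at 1.47, 1.90, 1.26 and 1.08 FPKM in WT and at 1.68, 2.07, 1.29 and 0.944 FPKM in KO. The opposite-strand gene Slc7a6os was at 13.8 and 13.9 FPKM.

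Summed over its 15 members, the Slc7 family was at 572.3, 558.3, 587.8 and 523.2 FPKM in WT and at 509.7, 487.2, 516.0 and 485.2 FPKM in KO, so that the groups did not overlap. Slc7a13, Slc7a7, Slc7a8 and Slc7a9 carry most of this sum. The Slc3 sum was at 270, 271, 289 and 276 FPKM in WT and at 257, 181, 264 and 267 FPKM in KO, also without overlap. In the Slc1, Slc6, Slc36, Slc38 and Slc43 sums the groups overlapped. The Slc6 sum was at 494 to 560 FPKM in WT and 365 to 511 FPKM in KO. The Slc38 sum was at 104 to 108 and 79.1 to 111 FPKM, and the Slc1 sum at 53.7 to 64.0 and 59.3 to 66.9 FPKM. The Slc43 sum was at 26.9 FPKM in KO replicate 2 and at 59.7 to 61.7 FPKM in the other KO mice. The Slc36 sum was at 16.0 FPKM there. These sums are descriptions, without a test.

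The Slc1 members carry acidic or neutral amino acids. Slc1a1 (EAAT3), which takes up glutamate and aspartate at the brush border, was at 42.6, 37.1, 40.3 and 35.0 FPKM in WT and at 41.0, 45.3, 37.9 and 37.0 FPKM in KO. Its difference was 0.07 (interval -0.16 to 0.30), or -0.01 without KO replicate 2. In 30.96% of its windows it shares sequence with the gene 4430402I18Rik. Slc1a5 (ASCT2, a glutamine exchanger) was at 14.7, 14.0, 13.1 and 12.7 FPKM in WT and at 12.8, 13.7, 13.6 and 14.1 FPKM in KO, with an interval from -0.16 to 0.19. In both genes the groups overlapped throughout. Slc1a4 (ASCT1, alanine, serine and cysteine) was the one member past an unadjusted p of 0.05 on the higher side. Slc1a4 (chr11:20302180-20332713) was at 5.66, 6.95, 6.75 and 4.96 FPKM in WT and at 7.41, 7.10, 6.81 and 7.76 FPKM in KO. The groups touched, with WT replicate 2 above KO replicate 3. The difference was 0.25 ± 0.11 (log2, SE; interval 0.01 to 0.50), with a limma adjusted p of 0.82.

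The Slc36 members are proton-coupled carriers of small neutral amino acids. Slc36a1, known from the lysosome and the brush border of gut, was at 28.5, 32.1, 31.1 and 26.5 FPKM in WT and at 33.8, 15, 29.4 and 27.0 FPKM in KO. Apart from KO replicate 2 the groups overlapped, and the difference of -0.20 (interval -0.62 to 0.23) was 0.02 without that mouse. Slc36a4 was at 2.76, 1.67, 1.61 and 1.77 FPKM in WT and at 1.67, 1.04, 1.79 and 2.22 FPKM in KO. Its spread within each group was wider than the difference of -0.13 (interval -0.46 to 0.20), which was -0.02 without KO replicate 2 and -0.02 without WT replicate 1.

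Below 1 FPKM, 28 members were not tested. Of these, 20 had a mean below 0.1 FPKM, 8 were between 0.1 and 1 FPKM and 10 had at most 10 reads over all 8 mice. Slc7a2, an arginine carrier, had the highest mean FPKM of them (0.712), with 510 reads in WT and 356 in KO. The glutamate carriers Slc1a2 and Slc1a3, best known from glia, had 552 and 130 reads in WT and 538 and 134 in KO. The glutamine carrier Slc38a1 had 273 and 262 reads, the proline carrier Slc6a7 80 and 64, and Slc43a1 (LAT3) 109 and 114. Slc6a14, Slc7a3, Slc36a2, Slc38a11 and the opposite-strand gene Slc6a19os had 11 to 33 reads in each group. Fewer were counted for Slc1a6, Slc1a7, Slc6a3, Slc6a5, Slc6a16, Slc7a15, Slc36a3, Slc36a3os and Slc38a8. Slc7a11, the cystine and glutamate exchanger, had 8 reads in WT and 17 in KO. Slc7a10 (Asc-1) had 1 read in WT and 9 in KO. A few of the rarest carriers, chosen after their values were seen, were read mainly in KO replicate 4. Others were not, such as Slc6a5 with 0 of 5 reads there and Slc6a3 with 2 of 7. KO replicate 4 held all 5 reads of the GABA carrier Slc6a11, all 7 of Slc7a14, 9 of 15 of the noradrenaline carrier Slc6a2 and 15 of 19 of the glutamine carrier Slc38a5. In the same mouse Ins2 was at 4.30 FPKM and Iapp at 7.10 FPKM, against at most 0.186 and 0 FPKM in the others. The part of islet tissue in these reads was not tested.

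**Figure D5:**
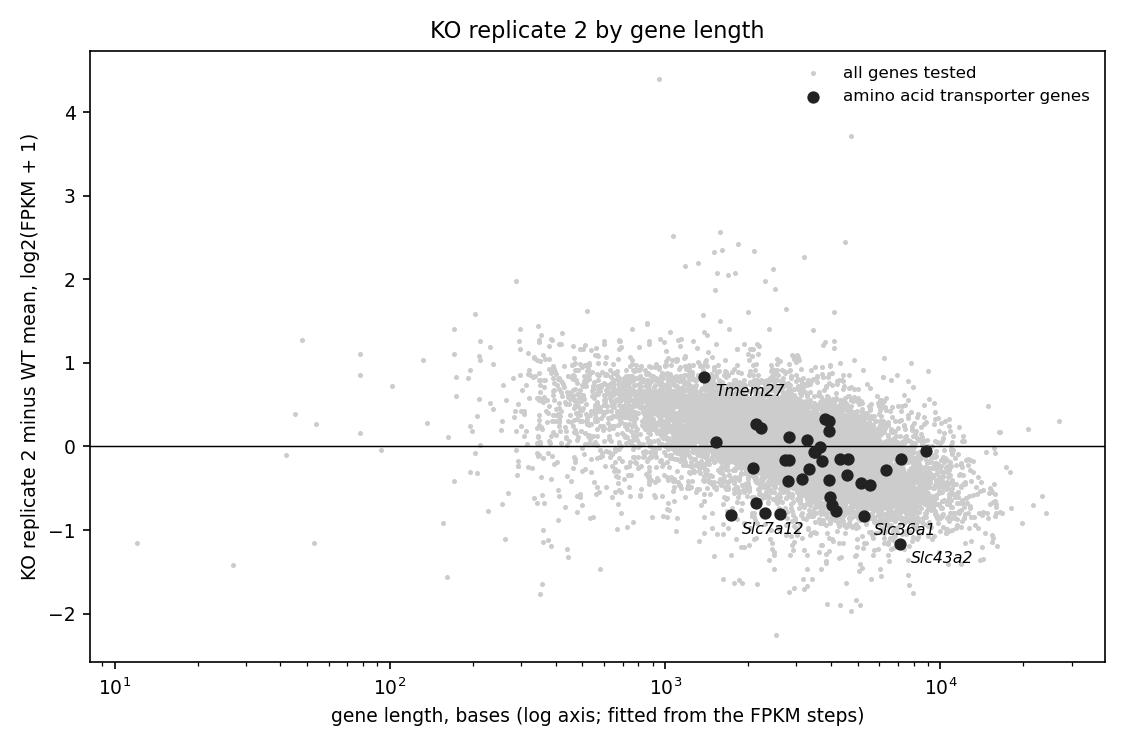
Difference of KO replicate 2 from the WT mean (log2 of FPKM + 1) against gene length in bases (log axis), with all 12118 tested genes in grey and the 37 members in black. The grey cloud slopes from above 0 for short genes to below 0 for long ones, and the members lie mostly below 0, from Tmem27 at 0.83 down to Slc43a2 at -1.17.

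KO replicate 2 was the lowest of the 8 mice in 19 of the 37 tested members (51.4%) and the highest in 5 (13.5%). Over all genes tested these shares were 34.4% and 32.1%. Its median difference from the WT mean was -0.17 in the members. Among members the correlation of this difference with gene length was -0.22 (Spearman, 37 genes). In this mouse 28 members lay below the WT mean and 9 above. With the length trend over all genes removed, 21 lay below and 16 above, with a median of -0.16. The lowest values then were -1.03 for Slc7a12, which had been at -0.82, -0.89 for Slc3a1 and -0.85 for Slc43a3. Next came -0.79 for Slc7a7, -0.78 for Slc43a2 and -0.60 for Slc6a19. Others came close to 0, with Slc6a17 going from -0.28 to 0.07, Slc6a18 from -0.15 to 0.03 and Slc38a10 from -0.34 to -0.12. Tmem27 was then at 0.53. With the trend removed in all mice, the median of the 37 members was -0.06 and 23 lay below 0.

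Of 16 tested genes on a list of other amino acid and peptide transporters, 0 passed the test, 12 were below 0 and 4 above, and the median was -0.09, or -0.06 without KO replicate 2. In that list Slc25a13, the mitochondrial aspartate and glutamate carrier, was at 53.0 ± 2.73 in WT and 42.6 ± 7.03 FPKM in KO, with a limma adjusted p of 0.74. Slc25a29, a mitochondrial carrier of basic amino acids, was at 3.78 ± 0.186 and 4.60 ± 0.342 FPKM (limma adjusted p = 0.75). Brush border peptidases and partners numbered 11 tested, 0 of which passed, with 8 below 0 and a median of -0.07. The peptidases Mme (neprilysin) and Enpep (aminopeptidase A) were at 23.4 ± 4.25 and 42 ± 1.92 FPKM in WT, and at 17.7 ± 3.17 and 35.6 ± 4.42 FPKM in KO. The 20 proximal tubule markers had a median of -0.13, or -0.05 without KO replicate 2, with 15 below 0 and 0 past the test.

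Genes of glutamine breakdown and ammonia making, the pathway that Slc38a3 supplies, numbered 14 tested, with 0 past the test, 8 below 0 and a median of -0.04. Gpt2, an alanine aminotransferase, was at 30.8 ± 1.97 in WT and 25.4 ± 1.56 FPKM in KO (limma adjusted p = 0.64). Glud1, glutamate dehydrogenase, was at 220 ± 10.9 and 189 ± 17.3 FPKM. Of 18 tested genes of the ATF4 response, the program that cells start in amino acid shortage, 0 passed, 14 were above 0 and the median was 0.24, or 0.16 without KO replicate 2. Nupr1, a stress-induced chromatin protein, was at 2.63 to 2.81 FPKM in WT and 4.05 to 7.53 FPKM in KO (limma adjusted p = 0.11). Chac1, which breaks down glutathione, was at 0.422 to 1.11 FPKM per WT mouse and 1.36 to 1.87 FPKM per KO mouse (limma adjusted p = 0.37), and Asns, asparagine synthetase, at 1.29 ± 0.447 and 2.19 ± 0.467 FPKM (limma adjusted p = 0.68). The 17 tested genes of amino acid sensing by mTORC1 had a median of -0.01, with 9 below 0, and 0 passed. Of all the pathway and cell type lists summed, 2 did not overlap between the groups, and every other list did. Immediate early and heat shock genes, which can change with the handling of tissue, summed to 94.2 to 120 FPKM in WT and 156 to 270 FPKM in KO. That sum joins genes that rose in different mice. Junb was at 21.2 to 23.0 FPKM in WT, 17.2 in KO replicate 1 and 113 in KO replicate 2. Hspa1b was at 7.24 to 12.7 FPKM in WT, 56.7 in KO replicate 1 and 10.8 in KO replicate 2. The part of handling was not tested. Urothelial markers summed to 4.24 to 11.6 FPKM in WT and 16.5 to 36.7 FPKM in KO, with 7 of 7 tested genes above 0 and 0 past the test. Summed leukocyte markers were at 114 FPKM in KO replicate 4 and at 65.3 to 78.6 FPKM in the other mice. Markers of the thick ascending limb were at 976 FPKM in KO replicate 2 and at 1260 to 1530 FPKM in the others. That mouse was also lowest in the podocyte sum (84.1 against 113 to 126 FPKM) and the distal convoluted tubule sum (250 against 370 to 446 FPKM). The same held for the fibroblast sum (19.2 against 28.6 to 37.2 FPKM). The intercalated cell sum was at 60.2 against 61.5 to 64.9 FPKM, while its principal cell sum was the highest (569 against 334 to 544 FPKM). In each of the podocyte, distal tubule, principal cell, intercalated cell and fibroblast lists 0 genes passed. The part of any of these lists in the transporter values was not tested.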

How the data were processed

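Kidney RNA libraries of 4 KO and 4 WT mice were grouped by their labelled genotype, with numbers that only tell mice apart. The authors deposited 1 table without a stated unit, read here as FPKM because low values are whole multiples of a step that is smaller for longer genes. Tools named per the submitters' processing notes include CASAVA, STAR 2.5 and HTSeq 0.6.1, on build mm10. Settings and strand use are not given here by any source. Library totals, reads and gene lengths were all recovered from the FPKM steps. The recovered reads made up 99.92% to 99.95% of these inferred totals, which is no check against reported depths. They were used for scaling by trimmed mean of M values, for voom and for counting.

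Limma 3.58.1 in R 4.3.3 (trend and robust options, statmod 1.5.0) was fitted to log2(FPKM divided by the scaling factor, plus 1) over 12118 genes with a mean of at least 1 FPKM, with Benjamini-Hochberg adjustment at 0.05. Differences on this scale understate the change of low genes. Each p-value sets the difference between the groups against the spread between these mice, drawn towards the trend of that spread over all genes. The procedure was tested on simulated data. Those data had no length trend and no outlying library, so they do not show how the test performs with a library such as KO replicate 2. Alternatives were other scalings, filters and pseudocounts, voom, weights and leaving out mice, and, added after the data were seen, removal of the length trend and leaving out KO replicates 2 and 4. Positions come from GENCODE M21 (mm10), which matched 34490 identifiers (97.8%), and promoters from RefSeq (GRCm38.p6).

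The members and all gene lists were chosen with earlier results of these data known, as were the motifs. Values of each mouse are given for members with an unadjusted p under 0.05, the 2 with the lowest p and the 3 with the highest level of each family. Further genes, and the islet list, were chosen after their values were seen. A few genes are not reported here.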

Additional observations from a re-analysis of the deposited data

Results flagged for a closer look

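Dixon's test at its 95% critical value was applied to 88 groups of 4 mice, of which chance flags about 1 in 20, and 9 had a mouse far from the others. The groups are values of different genes and family sums in the same WT or the same KO mice. Flags are therefore not independent of each other. Of the 9, 6 concern KO replicate 2. In that mouse Slc6a8 was at 75.0 FPKM against 125 to 133 in the other KO mice, Slc3a1 at 86.2 against 145 to 156, Slc6a20b at 40.5 against 55.4 to 58.2 and Slc43a2 at 20.6 against 46.9 to 49.0. The summed Slc3 level there was 181.0 FPKM against 257 to 267, and the summed Slc43 level 26.9 against 59.7 to 61.7. These sums contain Slc3a1 and Slc43a2, so they repeat the flags of those genes. In KO replicate 4, Slc7a12 was at 8.52 FPKM against 5.96 to 6.26, and Slc7a5 at 1.94 against 1.0 to 1.13. In WT replicate 1, Slc36a4 was at 2.76 FPKM against 1.61 to 1.77 in the other WT mice.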

How the results depend on the processing

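The count of members past the limma adjusted p threshold was 0 of 37, with 6 at an unadjusted p under 0.05. It was also 0 with limma-voom, with array weights and in every other alternative run, except limma-voom with quality weights, which gave 1 (Slc38a3, adjusted p 0.038). Leaving out 1 mouse at a time gave 0 to 0. The median of -0.08 was 0.01 with no filter on low values, where genes with few reads enter, and -0.11 to -0.03 without 1 mouse. Between 21 and 31 members lay below 0. Over 23 named genes and 19 alternatives, 407 values kept their direction and side of the threshold, 1 became significant and 29, in 10 genes, changed sign. Slc1a5 was -0.01 with FPKM as deposited, upper quartile scaling and quality weights, -0.00 with array weights and -0.05 without KO replicates 2 and 4. Slc6a8 was 0.05 with both weightings and without both mice. Slc36a4 was 0.03 and 0.02, Slc38a10 0.04 and 0.05 and Slc43a3 0.01 and 0.01 with quality and array weights. Slc38a10 was 0.03 with the length trend removed and 0.04 without both mice, and Slc36a1 0.09 without both mice. Without 1 mouse the ranges were -0.01 to 0.12 for Slc1a1, -0.02 to 0.05 for Slc1a5, -0.17 to 0.06 for Slc6a8, -0.11 to 0.03 for Slc6a18, -0.14 to 0.02 for Slc7a13, -0.32 to 0.02 for Slc36a1, -0.09 to 0.08 for Slc38a10, -0.28 to 0.05 for Slc43a3 and -0.02 to 0.31 for Tmem27. The causes were not tested. No paired analysis was possible because the labels give the KO and WT mice no shared replicate numbers. Members with few reads are measured with large counting error.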
